A study of Mus musculus with 14 samples.

Results

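The 10 transmitter release genes described here were followed in neuronal nuclei of the medial entorhinal cortex of mice. The genes encode synaptic vesicle and membrane fusion proteins, and were chosen by name as Snap25, Stx1a, Vamp1, Vamp2, Syt1, Syt2, Syn1, Syn2, Syp and Sv2a. All 10 were found among the 27781 named gene rows of the deposited table, and all 10 passed the filter on low values (at least 7 libraries at 1 or above), as did 24554 genes in all. SmartSeq libraries came from 7 aged and 7 young samples. The labels give the groups only as aged and young: age in months, strain, sex and batch are not stated there, and no treatment or allele is named in the labels of either group. Nor do the labels tie each library to its own animal, and p-values accordingly reflect the spread among these 14 samples and no more.

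Neurotransmitter is stored in synaptic vesicles and released when a vesicle fuses with the presynaptic membrane. Fusion is driven by SNARE proteins: a synaptobrevin on the vesicle (Vamp1 or Vamp2) zips together with syntaxin (Stx1a) and Snap25 on the plasma membrane. Synaptotagmins (Syt1 or Syt2) sense calcium and trigger the fusion, synapsins (Syn1, Syn2) tether vesicles in reserve, and synaptophysin (Syp) and Sv2a are vesicle membrane proteins. In cortex, Syt1 and Vamp2 are the forms most neurons use, while Syt2 and Vamp1 are known for their presence in fast-spiking parvalbumin interneurons. What was measured here is RNA in nuclei, not protein at terminals.

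The libraries formed a pair of sets that did not coincide with age. Xist, the RNA that coats the inactive X chromosome, measured 7378 to 25459 in 5 aged and 2 young libraries (Xist-positive: aged 3, 4, 5, 6 and 7, young 2 and 3) and 0 to 5.13 in 2 aged and 5 young libraries (Xist-negative: aged 12 and 13, young 11, 16, 17, 18 and 19). The numbers are those of the sample titles. Genes above 0 numbered 21152 to 22812 in Xist-positive libraries and 25263 to 25615 in Xist-negative libraries. Because the sets are unequal in age, the age difference of each gene named is given over all 14 libraries and again with the library set as a further term of the model (the library-set term, or set term). Values are the authors' normalized signal per gene, so read depth is unknown.

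Neuronal markers were present in every library, and so were markers of other cells. The summed level of 5 general neuronal markers ran from 32631 to 62349 in aged libraries and from 27484 to 61680 in young libraries, and all 5 excitatory markers (9863 to 34686 aged, 21000 to 33591 young) and all 5 inhibitory markers (5549 to 18445 aged, 5417 to 12176 young) were found. The 6 oligodendrocyte markers summed to 5200 to 18463 in aged and 3487 to 9778 in young libraries, and the 6 astrocyte markers to 4520 to 14005 in aged and 4943 to 8025 in young libraries. Microglial, oligodendrocyte precursor and vascular sums were smaller, at most 4408 in any library, and no marker of any list was at 0 in a library. None of these markers passed the age test, and their part in the results was not tested. In bulk samples such as these, fewer cells of a type and less RNA per cell cannot be told apart.

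Per kilobase of exon, Syt1 and Snap25 stood above the other 8 genes in all 14 libraries. The mean level over the 14 libraries was 9341 per kilobase for Syt1, 4934 for Snap25, 2181 for Syp, 1769 for Syn1, 1297 for Sv2a, 1110 for Vamp2, 994 for Syn2, 926 for Stx1a, 195 for Vamp1 and 163 for Syt2. Syt1 ranked first in all libraries but aged library 3, where Snap25 did, and Syp ranked 3 or 4 in every library. Vamp1 ranked 9 in every library. Syn1, Sv2a, Vamp2, Syn2 and Stx1a, neighbours in this order, changed places between libraries: Syn1 ranked between 3 and 6, Sv2a between 4 and 7, Vamp2 between 5 and 8, Syn2 between 3 and 8 and Stx1a between 5 and 10. Syt2 ranked last in all but aged library 3, where it ranked 7.

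**Figure D1:**
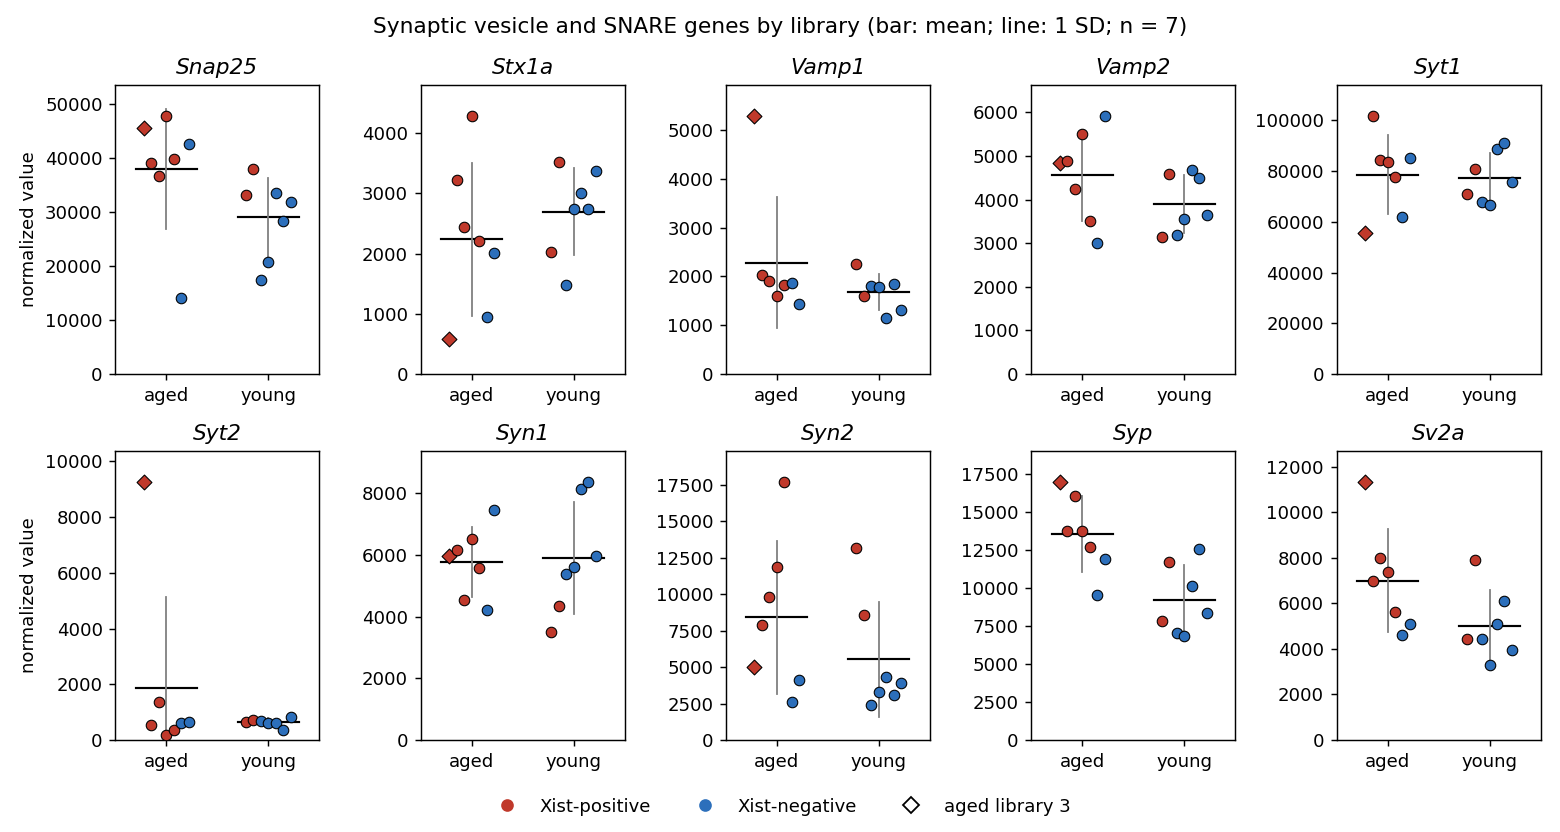
Normalized value of each gene by library in the aged and young groups (points, 7 per group; red Xist-positive, blue Xist-negative; diamond, aged library 3; bar, mean; line, 1 SD). Aged library 3 stands far above the other libraries for Vamp1 (5288) and Syt2 (9259), and Syn2 separates by colour, at 4980 to 17711 in Xist-positive and 2429 to 4335 in Xist-negative libraries.

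None of the 10 genes passed the age test. Syp had the largest support, at 13522 ± 2493 in aged libraries and 9209 ± 2290 in young ones (SD, n = 7 each). With limma on log2(value + 1), 0 of 10 had an adjusted p under 0.05 over all libraries, where 0.00407% of all genes did, and 0 of 10 with the library-set term, where 0.00815% did. At an unadjusted p under 0.05, 1 of 10 passed in each fit, Syp both times, against 24.1% and 13.1% of all genes. The aged and young values overlapped for all 10 genes over the 14 libraries, and 0.212% of all genes had groups that did not overlap. With array weights in limma, which gave little weight to the Xist-negative aged and Xist-positive young libraries, 4 of the 10 passed over all libraries (Snap25, Syn2, Syp and Sv2a), as did 53.1% of all genes, and 0 passed with the set term. The authors' deposited table called none of the 10 either, against 2.41% of its genes, and listed an unadjusted p under 0.05 for Syp alone. The terms of the model behind it are not stated, and its log2 fold changes differ from those of the fit over all libraries. Syn2 had -0.04 there and 0.60 in that fit, Sv2a 0.22 and 0.47, and Syt2 0.90 and 0.35.

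In sign, 9 of 10 log2 differences (aged minus young, in units of log2(value + 1)) lay above 0 over all libraries, with a median of 0.34. Of all genes tested 37.2% lay above 0, with a median of -0.25. The genes tested span all levels, while the mean level of the 10 lay above 80.4% (Syt2) to 99.95% (Syt1) of the named genes. Genes of like level were not compared apart. With the library set in the model, 7 of 10 lay above 0, with a median of 0.16 against -0.16 for all genes. Without aged library 3 the median of the 10 was 0.15 with age alone in the model, against -0.24 for all genes. Once the set term was added it was 0.05, against -0.15 for all genes.

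**Figure D2:**
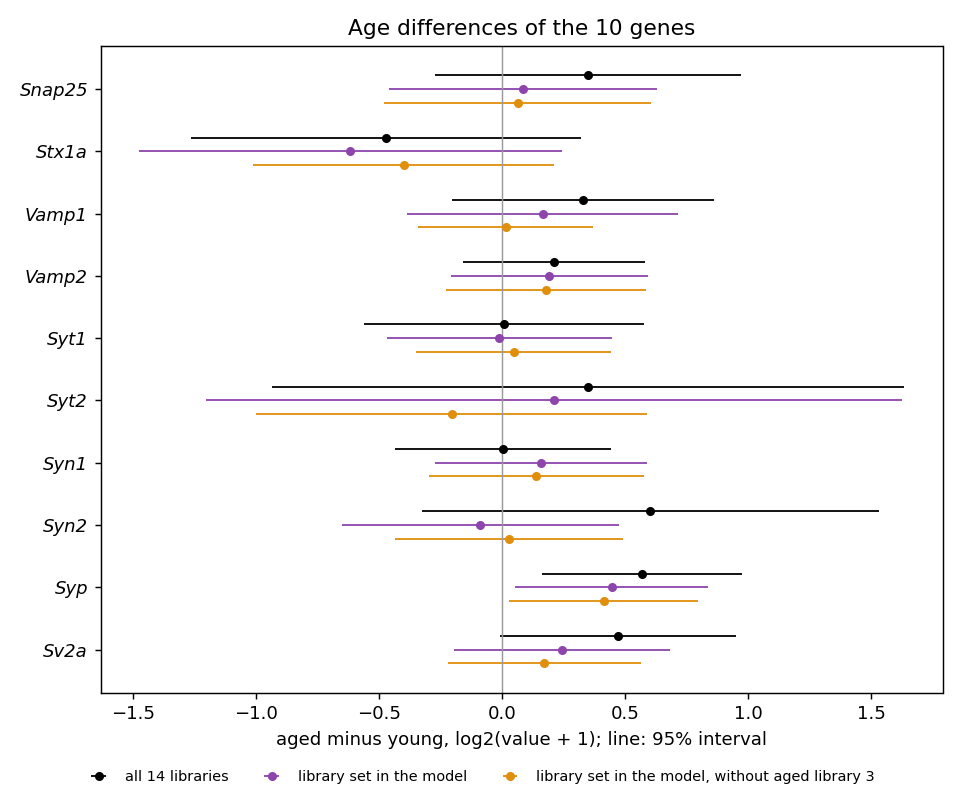
Log2 difference of each gene, aged minus young in log2(value + 1) units, with its 95% interval (lines) over all libraries (black), with the library-set term (purple) and with both the set term and the omission of aged library 3 (orange). The interval of Syp lies above 0 in all 3 fits, although its adjusted p does not pass, and Syt2 changes sign without aged library 3.

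Among the SNAREs of the plasma membrane, Snap25 (chr2:136713453-136782428, plus strand, mm10) supplies a pair of the helices of the fusion complex. It ran from 14154 through a median of 39841 to 47825 in aged libraries and from 17459 through 31884 to 37941 in young libraries. Aged library 12 was the lowest of all 14, the other 6 aged libraries lay between 36720 and 47825, and the groups overlapped. The means were 37995 ± 11191 in aged libraries and 29018 ± 7381 in young ones (SD, n = 7 each), or a log2 difference of 0.35 (SE 0.29, 95% interval -0.27 to 0.97, adjusted p = 0.437 by limma). With the set term it was 0.08 (SE 0.26, adjusted p = 0.908).

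Stx1a (chr5:135023482-135051100, plus strand), the syntaxin that pairs with Snap25, was the only one of the 10 with a negative difference over all libraries. Its values were 575, 2207 and 4285 in aged libraries (lowest, median, highest) and 1486, 2738 and 3523 in young libraries. The lowest aged value was that of aged library 3, followed by aged library 12 at 941, yet aged library 6 was the highest of the 14. The difference was -0.47 over all libraries (SE 0.37, 95% interval -1.27 to 0.32, adjusted p = 0.409 by limma) and -0.62 with the set term (SE 0.41, adjusted p = 0.511). Without aged library 3 it was -0.19 and -0.40 in those fits, and within the Xist-negative libraries it was -0.90 (SE 0.36, adjusted p = 0.842).

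The vesicle SNARE Vamp2 (chr11:69088490-69092384, plus strand) did not pass the age test. It measured 3009 to 5919 with a median of 4842 in aged libraries and 3146 to 4677 with a median of 3637 in young libraries. Both extremes of the 14 were aged libraries of the Xist-negative set, aged library 12 low and aged library 13 high. Its difference was 0.21 over all libraries (SE 0.17, adjusted p = 0.432 in limma) and 0.19 with the set term (SE 0.19, adjusted p = 0.671).

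Its paralog Vamp1 (chr6:125215551-125245964, plus strand) was set by a single library. The other 6 aged libraries measured 1435 to 2029, library 3 measured 5288, and young libraries measured 1147 to 2247 with a median of 1779. The aged mean was 2278 ± 1342 (SD, n = 7) and became 1776 ± 220 (SD, n = 6) without library 3, against 1678 ± 364 (SD, n = 7) in young libraries. The log2 difference was 0.33 (SE 0.25, 95% interval -0.20 to 0.86, adjusted p = 0.392 by limma) over all libraries. With the set term it was 0.17 (SE 0.26, adjusted p = 0.803). Without aged library 3 it was 0.10 (SE 0.17, adjusted p = 0.724), and 0.01 with the set term added. Tapbpl and Cd27 overlap Vamp1 on the opposite strand, and strand use in counting is not stated by any source used here. Tapbpl measured 340 ± 109 in aged libraries and 174 ± 44.5 in young ones (SD, n = 7 each), and 380 in aged library 3. Cd27 measured 18.004 to 67.4 in any library.

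Of the calcium sensors, Syt1 (chr10:108497650-109010982, minus strand), the fast sensor of most forebrain synapses, did not separate the groups. It measured 55770 to 101698 with a median of 83685 in aged libraries and 66515 to 90837 with a median of 75575 in young libraries, so that the aged range held the whole young range. Its mean was 78542 ± 15490 in aged libraries and 77222 ± 9821 in young ones (SD, n = 7 each). The difference was 0.01 (SE 0.27, 95% interval -0.56 to 0.58, adjusted p = 0.985 by limma), and -0.01 (SE 0.22) with the set term.

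Syt2 (chr1:134646677-134762593, plus strand), the sensor of fast-spiking interneurons and hindbrain synapses, was the most uneven of the 10. In aged libraries it measured 195, 364, 553, 602, 661, 1349 and 9259, the last in aged library 3, and in young libraries it measured 363 to 823 with a median of 653. Without library 3 the aged mean was 621 ± 396 (SD, n = 6), against 638 ± 141 (SD, n = 7) in young libraries. The log2 difference was 0.35 over all libraries (SE 0.61, 95% interval -0.94 to 1.64, adjusted p = 0.727 by limma) and 0.21 with the set term (SE 0.67, adjusted p = 0.911). Without aged library 3 it was -0.24 (SE 0.35, adjusted p = 0.692), and -0.21 with the set term added. The log2 fold change of Syt2 in the authors' deposited table was 0.90 (SE 0.72, adjusted p = 0.611), the largest of the 10. Ppp1r12b, which overlaps Syt2 on the opposite strand, measured 5504 in aged library 3, within the 3480 to 10632 of all libraries.

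The RefSeq promoters of Syt2 and Vamp1, both highest in aged library 3, are printed here as the 250 bases before the start (GRCm38.p6, 5′ to 3′ on the gene's strand), at chr1:134646362-134646611 and chr6:125215331-125215580, both plus strand. Capitals mark the single match to an estrogen-related receptor element (TNAAGGTCA, either strand), here on the minus strand; such a match is in 1.14% of 32851 promoter windows of that length. Vamp1 holds none of the motifs searched.
Syt2: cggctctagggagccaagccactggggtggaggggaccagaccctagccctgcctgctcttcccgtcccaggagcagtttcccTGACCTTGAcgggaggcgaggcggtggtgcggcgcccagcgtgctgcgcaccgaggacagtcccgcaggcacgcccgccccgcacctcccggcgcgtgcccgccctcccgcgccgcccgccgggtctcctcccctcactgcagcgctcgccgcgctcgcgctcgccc
Vamp1: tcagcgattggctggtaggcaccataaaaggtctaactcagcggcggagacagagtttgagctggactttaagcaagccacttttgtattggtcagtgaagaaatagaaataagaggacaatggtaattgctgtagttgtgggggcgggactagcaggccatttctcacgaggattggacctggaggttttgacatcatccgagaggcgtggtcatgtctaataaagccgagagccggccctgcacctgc
The printed Syt2 window is 76.0% G and C with 30 CpG and the Vamp1 window 50.4% with 9, against medians of 52.4% and 6 over all windows. A further Syt2 window, at chr1:134709050-134709299 (66.4% G and C, 22 CpG), holds none of the motifs searched and is not printed. The motifs were searched on both strands, and a match is a description of letters only.

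The synapsins behaved unlike each other between the library sets. Syn1 (chrX:20860511-20921004, minus strand) measured 4206, 5954 and 7441 in aged libraries (lowest, median, highest) and 3488, 5603 and 8362 in young libraries. The young libraries spread wider, with both Xist-positive ones lowest, and the aged range lay inside the young one. Araf and Timp1 overlap Syn1 on the opposite strand, at 2999.8 to 6632 and 0 to 16.2 in any library. The age difference was 0.00 over all libraries (SE 0.21, 95% interval -0.43 to 0.44, adjusted p = 0.993 by limma) and 0.16 with the set term (SE 0.20, adjusted p = 0.754).

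Within the Xist-positive libraries every aged Syn1 value (4529 to 6499) lay above both young values (3488 and 4343), a difference of 0.55 (SE 0.18, adjusted p = 0.439 by limma). Within the Xist-negative libraries the aged values were 4206 and 7441 and the young values 5391 to 8362, a difference of -0.23 (SE 0.29, adjusted p = 0.915). The difference between these differences was 0.78 (SE 0.37) and did not pass. In that test 0 of 10 members passed at an adjusted p under 0.05 and 0 at an unadjusted p under 0.05, against 0% and 3.62% of all genes. Syn1 and Syp were the 2 of 10 genes whose aged values all lay above the young ones within the Xist-positive libraries, where 4.65% of all genes did so. In the Xist-negative libraries 0 of 10 were free of overlap in either direction, against 10.1% of all genes.

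Syn2 (chr6:115134902-115282006, plus strand) followed the library set. It was higher in Xist-positive libraries, at 10585 ± 4129 against 3392 ± 741 in Xist-negative libraries (SD, n = 7 each). The lowest Xist-positive library was aged library 3 at 4980 and the highest Xist-negative one was young library 17 at 4335, so the sets did not overlap. With age in the model the set difference, Xist-positive minus Xist-negative, was 1.61 (SE 0.27, 95% interval 1.05 to 2.17, adjusted p = 0.0001 by limma), and 1.73 without aged library 3. Of all genes 4.88% were higher in Xist-positive libraries without overlap.

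By age, Syn2 measured 2620, 7894 and 17711 in aged libraries (lowest, median, highest) and 2429, 3914 and 13169 in young libraries. The high values of each age group were its Xist-positive libraries, of which there were 5 aged and 2 young. The age difference was 0.60 over all libraries (SE 0.44, 95% interval -0.33 to 1.53, adjusted p = 0.369 by limma) and -0.09 with the set term (SE 0.27, 95% interval -0.65 to 0.47, adjusted p = 0.906). In the Xist-positive libraries Syn2 averaged 10465 ± 4786 in 5 aged and 10885 ± 3230 in 2 young libraries, and in the Xist-negative libraries 3356 ± 1041 in 2 aged and 3406 ± 742 in 5 young libraries (SD). Timp4 lies inside Syn2 on the opposite strand and measured 2432 ± 983 in Xist-positive and 1489 ± 277 in Xist-negative libraries (SD, n = 7 each). Its part in the Syn2 value was not tested.

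Because the synapsin pair parted between the sets, their promoters are printed side by side, again as the 250 bases before the RefSeq start, at chrX:20920919-20921168 (minus strand) for Syn1 and chr6:115134652-115134901 (plus strand) for Syn2. Capitals in Syn1 mark, in order, the left arm of a REST site (TTCAGCACC, in 0.301% of all windows) and a cyclic AMP response element (TGACGTCA, in 1.55%). Syn2 holds none of the motifs searched.
Syn1: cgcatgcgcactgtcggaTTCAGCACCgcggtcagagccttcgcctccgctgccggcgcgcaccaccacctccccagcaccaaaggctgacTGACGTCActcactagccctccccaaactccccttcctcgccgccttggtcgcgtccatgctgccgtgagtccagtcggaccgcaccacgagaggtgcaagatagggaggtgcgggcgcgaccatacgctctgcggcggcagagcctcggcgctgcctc
Syn2: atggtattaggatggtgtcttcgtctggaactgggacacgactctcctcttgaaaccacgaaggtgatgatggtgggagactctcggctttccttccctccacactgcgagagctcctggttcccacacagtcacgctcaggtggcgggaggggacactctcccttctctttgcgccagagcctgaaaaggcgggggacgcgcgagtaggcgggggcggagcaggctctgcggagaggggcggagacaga
The Syn1 window is 68.0% G and C with 27 CpG, and the printed Syn2 window 61.2% with 16. A further Syn2 window, at chr6:115238744-115238993 (50.4% G and C, 5 CpG), also holds no match and is not printed. Promoter windows were found for 8 of the 10 genes, 11 windows in all. Of the other motifs searched, an Sp site (GGGGCGGGG, 10.4% of all windows) was in Sv2a and Syp, and an EGR site (GCGTGGGCG, 0.536%) and an E-box (CACGTG, 6.02%) were in none.

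Among the vesicle membrane proteins, Syp (chrX:7638471-7653256, plus strand), an abundant vesicle membrane protein and a partner of Vamp2, came nearest to an age difference. It measured 9552, 13728 and 16976 in aged libraries (lowest, median, highest) and 6828, 8334 and 12582 in young libraries. In all, 5 of 7 aged libraries lay above every young one, and aged libraries 12 and 13 (9552 and 11904) lay inside the young range. The difference was 0.57 over all libraries (SE 0.19, 95% interval 0.16 to 0.97, adjusted p = 0.182 by limma) and 0.44 with the set term (SE 0.19, 95% interval 0.05 to 0.84, adjusted p = 0.332).

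The Syp difference was positive within each set. In Xist-positive libraries the aged values ran from 12717 to 16976 and the young values were 7850 and 11699, a difference of 0.60 (SE 0.22, adjusted p = 0.477 by limma). In Xist-negative libraries the aged values were 9552 and 11904 and the young ran from 6828 to 12582, a difference of 0.29 (SE 0.27, adjusted p = 0.915). Gm14703, which overlaps Syp on the opposite strand, measured 44.0 to 456 in any library. Without aged library 12, Syp passed over all libraries (0.65, adjusted p = 0.0473 by limma), in a fit where 9.7% of all genes passed. The authors' deposited table gave Syp a log2 fold change of 0.42 (SE 0.19, p = 0.0338, adjusted p = 0.245), aged over young, from a model whose terms are not stated.

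Sv2a (chr3:96181151-96195521, plus strand), a vesicle glycoprotein that binds the antiepileptic drug levetiracetam, passed between the library sets and not by age. It measured 4603, 6977 and 11330 in aged libraries (lowest, median, highest) and 3290, 4437 and 7890 in young libraries. Aged library 3 was the highest of the 14, and the remaining aged values lay within or just above the young range. Its age difference was 0.47 over all libraries (SE 0.23, 95% interval -0.01 to 0.95, adjusted p = 0.211 by limma) and 0.24 with the set term (SE 0.21, adjusted p = 0.614). Between the sets Sv2a averaged 7370 ± 2168 in Xist-positive and 4651 ± 910 in Xist-negative libraries (SD, n = 7 each), a difference of 0.53 (SE 0.21, adjusted p = 0.0411). Omitting 1 library ended the Sv2a call in 8 of 14 cases (0.41 to 0.53, adjusted p up to 0.161; aged 5, 6, 12 and 13 and young 3, 11, 16 and 19), as did totals made equal per library (0.21) and upper-quartile scaling (0.38).

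Between the library sets, 2 of the 10 genes passed with age in the model, Syn2 and Sv2a, both higher in Xist-positive libraries, while 52% of all genes passed in one direction or the other and 15.5% were higher. The remaining 8 did not pass. Snap25 had a set difference of 0.62 (SE 0.26, adjusted p = 0.0547 by limma), at 40059 ± 5082 in Xist-positive and 26954 ± 10035 in Xist-negative libraries (SD, n = 7 each), and passed without aged library 13, young library 17 or young library 19 (0.66 to 0.87). Syn1 had the only negative one, at -0.36 (SE 0.20, adjusted p = 0.147), and passed without aged library 12 (-0.62) and with totals made equal per library (-0.68). The Syn2 call held in all 14 of these omissions. The other 6 lay between 0.04 (Vamp2) and 0.38 (Vamp1). With equal totals the median set difference of all genes moved by -0.31, and Vamp2, Syt1 and Syp then had negative differences. The split of calls moved with it: 1 member was then called higher and 1 lower, against 7.68% and 43.2% of all genes, and with upper-quartile scaling 1 was higher and 0 lower, against 11% and 39%. Some cell type markers were called between the sets too, where 15.5% of all genes were higher and 36.5% lower. Rbfox3 (1 of 5 general neuronal markers) and Kcnc1 (1 of 5 parvalbumin markers) were higher in Xist-positive libraries. Lower were 2 of 6 oligodendrocyte, 2 of 4 oligodendrocyte precursor, 3 of 6 microglial and 4 of 5 vascular markers. No excitatory, inhibitory or astrocyte marker was called. The part of the markers in the Syn2 and Sv2a values was not tested.

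The ratio of each paralog pair, in which a library's scaling factor cancels, was compared as a log2 ratio of the values, not divided by exon length, which moves all libraries of a pair alike. Syn2 over Syn1 was 0.95 ± 0.74 in Xist-positive and -0.92 ± 0.29 in Xist-negative libraries (SD, n = 7 each). The ranges, -0.26 to 1.92 and -1.44 to -0.61, did not overlap. Per kilobase of exon, Syn2 was above Syn1 in 3 of 7 Xist-positive and 0 of 7 Xist-negative libraries. The difference adjusted for age group was 1.98 (two-sided exact permutation, 441 arrangements within age groups, p = 0.0023, the smallest they allow; adjusted p = 0.0068 over 3 ratios). Syt2 over Syt1 differed by 0.27 between the sets (adjusted p = 0.785, exact permutation) and Vamp1 over Vamp2 by 0.34 (adjusted p = 0.561, exact permutation). This set test was chosen after the values were seen.

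By age no ratio passed. Over all 3432 permutations the aged minus young difference was 0.60 for Syn2 over Syn1, 0.34 for Syt2 over Syt1 and 0.12 for Vamp1 over Vamp2 (two-sided exact permutation, adjusted p = 0.773 each). Permuted within the library sets, the differences were -0.25, 0.22 and -0.03 in the same order (exact permutation, adjusted p = 0.936 each). In aged library 3 the log2 ratio of Vamp1 over Vamp2 was 0.13, against -2.04 to -0.49 in the other 13 libraries. Per kilobase of exon Vamp2 stood above Vamp1 in all 14, by 2.44 times in aged library 3 and by 3.74 to 11.01 times elsewhere. On the same scale Syt1 exceeded Syt2 by 5.52 times in aged library 3 and by 57.2 to 394 times elsewhere.

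**Figure D3:**
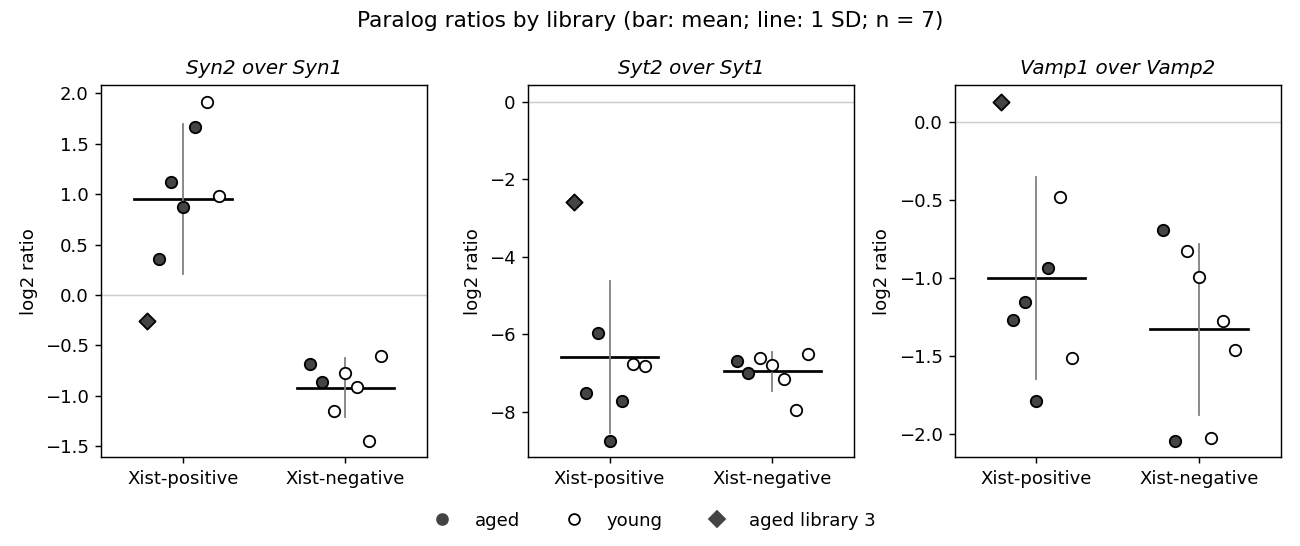
Log2 ratio of the paralog pairs by library, Xist-positive left of Xist-negative (filled, aged; open, young; diamond, aged library 3; bar, mean; line, 1 SD; 7 libraries per set). Syn2 over Syn1 separates the sets, and in the other pairs aged library 3 is the highest point.

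Among the 10 genes, aged library 3 lay at both ends. It was the highest of the 14 libraries for 4 of the 10 genes (Vamp1, Syt2, Syp and Sv2a) and the lowest for Stx1a and Syt1. The shares of all genes for which it was highest or lowest were not taken. Against the median of the 6 other aged libraries, Syt2 was 16.03 times as high, Vamp1 2.87 times, Sv2a 1.80 times and Syp 1.28 times, while Stx1a was at 0.248 of it, Syn2 at 0.561 and Syt1 at 0.664. Vamp2 and Syn1, at 1.06 and 1.01 times, lay near it.

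Cell type markers moved with that library. Its excitatory markers summed to 9863, the lowest of the 14, against 19345 to 34686 in the other aged and 21000 to 33591 in young libraries. Its inhibitory markers summed to 18445 and its oligodendrocyte markers to 18463, both the highest of the 14, and its astrocyte markers to 13043, the second highest. Pvalb, the calcium buffer that names parvalbumin interneurons, measured 1313 in aged library 3, 19.3 to 317 in the other aged libraries and 46.9 to 275 in young libraries. The other parvalbumin markers did not all follow it. Kcnc1, a potassium channel of fast-spiking cells, was also highest there (9225, against 661 to 4402 in the other 13 libraries), and Tac1 was second highest at 621. Erbb4 (16675) lay within the 8277 to 36714 of the others, and Cox6a2 was the lowest of the 14 at 0.63, against 8.80 to 50.9. The part of these shifts in the Syt2 and Vamp1 values was not tested.

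Within the library sets, Syt2 and Vamp1 were set against the mean log2 level of 5 parvalbumin interneuron genes (Pvalb, Kcnc1, Tac1, Erbb4 and Cox6a2), 4 relations in all. In the Xist-positive libraries Pearson's r was 0.84 for Syt2 (exact permutation over 5040 orderings, p = 0.0196, adjusted p = 0.0786, n = 7), with a Spearman's rho of 0.82 (exact permutation p = 0.0341, adjusted p = 0.136). Without the 2 libraries farthest from the median, aged 3 and aged 4, r was 0.83, and without aged library 3 alone it was 0.59. For Vamp1 r was 0.68 (exact permutation p = 0.110, adjusted p = 0.220) and rho 0.29 (exact permutation p = 0.556, adjusted p = 0.741), and r was 0.11 without the 2 farthest libraries, so it rested on them. In the Xist-negative libraries r was -0.10 for Syt2 (rho -0.36) and -0.12 for Vamp1 (rho 0.07), and both adjusted p of r were 0.810 (exact permutation). None of the 4 relations passed the adjustment.

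**Figure D4:**
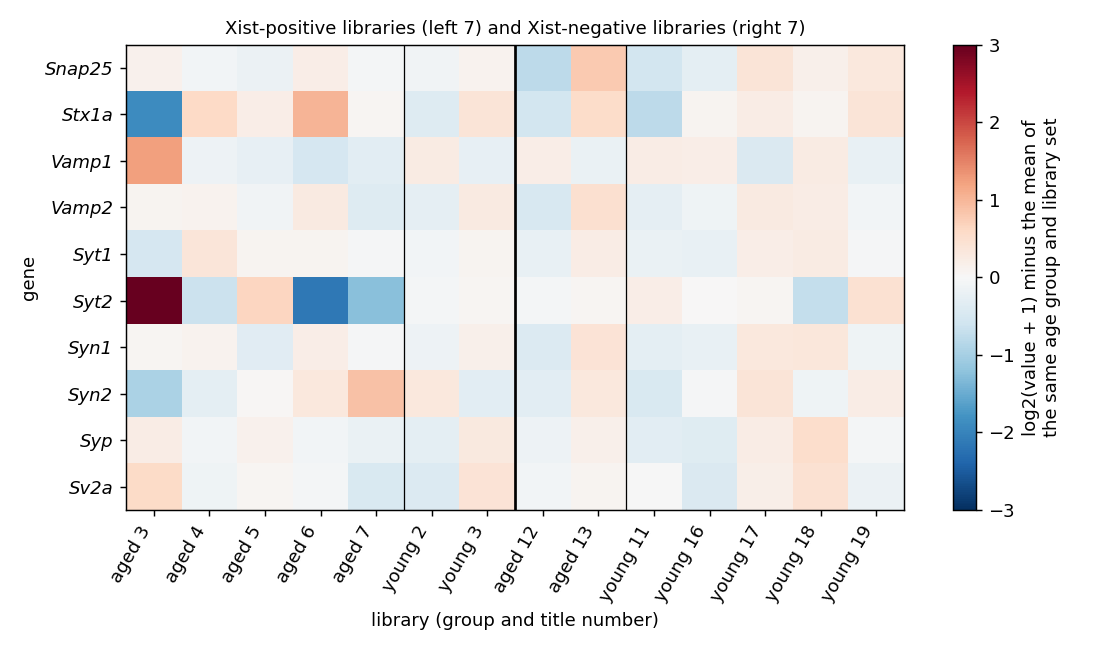
Deviation of each gene in each library from the mean of its own age group and library set, in log2(value + 1) units (red above, blue below; Xist-positive libraries left, Xist-negative right). The first column, aged library 3, is red for Syt2 and Vamp1 and blue for Stx1a, Syn2 and Syt1, and aged library 12 is blue for Snap25, Stx1a and Vamp2.

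How the 10 genes varied together was taken from what remained after the means of the 4 age by set groups were subtracted. These correlations are descriptions over 14 libraries that share their normalization, and carry no test. Aged libraries 12 and 13 alone make up 1 of these groups, and young libraries 2 and 3 another. Within each such pair the deviations are equal and opposite (Snap25, -0.79 in aged library 12 and 0.79 in aged library 13). Fewer than 14 deviations are thus free, and such a pair can by itself move genes together. Of 45 pairs of genes, 30 had a positive r and the median was 0.34. The closest fellow of Vamp2 was Syn1 (r = 0.88), that of Syp was Sv2a (0.86), that of Snap25 was Syn1 (0.83), and that of Stx1a was Syt1 (0.82). Without aged library 3 the r of Stx1a and Syt1 was 0.63, and the closest fellows were Vamp2 for Stx1a (0.85) and Syn1 for Syt1 (0.85). Vamp1 and Syt2 were each other's closest fellow (0.75), but without aged library 3 their r was 0.03. Stx1a and Vamp1 were the most opposed pair, at -0.90. Without that library their r was -0.67, and Snap25 and Vamp1 were the most opposed, at -0.69. Of 16226 genes with a mean of 100 or more, the 5 closest to the mean profile of the 10, the highest r among that many, were Idh3a (r = 0.98), Pgk1 (0.98), Rps3 (0.97), Psmd7 (0.97) and Cisd1 (0.97).

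Other genes of vesicle release gave no age call. The 6 lists held 107 genes, of which 105 were tested and Vamp7 and Stxbp3 were not. With limma, 0 of 105 passed an adjusted p of 0.05 over all libraries, 0 passed with the set term, and 14 had an unadjusted p under 0.05 in each fit (13.3% of the 105, against 24.1% and 13.1% of all genes). Over all libraries 65 differences lay above 0 and 40 below (median 0.09, against -0.25 for all genes), and with the set term 51 lay above and 54 below (median -0.01, against -0.16).

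Relatives of synaptophysin and Sv2a did not pass either. Syngr3, a synaptogyrin of the same membrane family as Syp, averaged 6005 ± 1335 in aged libraries and 3885 ± 1241 in young ones (SD, n = 7 each), or a log2 difference of 0.66 (SE 0.22, adjusted p = 0.182 by limma), and 0.56 with the set term. Sv2c averaged 2817 ± 1953 in aged and 1489 ± 420 in young libraries (0.68, SE 0.35, adjusted p = 0.230), and its difference with the set term was 0.69. Among the calcium sensors, the difference of Doc2a was 0.65 (SE 0.24, adjusted p = 0.182) and that of Syt4 0.41 (SE 0.17, adjusted p = 0.188), and with the set term they were 0.54 and 0.34. Syt7, a slow sensor of asynchronous release, had 0.02 over all libraries (SE 0.45, adjusted p = 0.984) and -0.77 with the set term (SE 0.19, adjusted p = 0.169).

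Of 25 other SNAREs, 15 differences lay above 0 over all libraries and 11 with the set term (medians 0.12 and -0.05), and of 20 regulators of SNARE assembly 14 and 10 did (medians 0.07 and -0.03). Snap47, a Snap25 relative, averaged 6295 ± 1444 in aged libraries and 4426 ± 1177 in young ones (SD, n = 7 each), a difference of 0.51 (SE 0.19, adjusted p = 0.182 by limma), and 0.52 with the set term. Stx3 had 0.55 over all libraries (SE 0.26, adjusted p = 0.209) and 0.19 with the set term. Hspa8, the chaperone that acts with cysteine string protein on Snap25, had 0.47 over all libraries (SE 0.28, adjusted p = 0.272) and 0.67 with the set term (SE 0.27, adjusted p = 0.316). Sgta, a cochaperone of that complex, had 0.45 over all libraries (SE 0.19, adjusted p = 0.189) and 0.28 with the set term.

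In the Rab3 cycle, which docks vesicles, Rabac1 averaged 2653 ± 1207 in aged libraries and 1397 ± 489 in young ones (SD, n = 7 each), a difference of 0.88 (SE 0.29, adjusted p = 0.182 by limma), and 0.62 with the set term. Rab3a had 0.58 over all libraries (SE 0.25, adjusted p = 0.190) and 0.46 with the set term. Madd, an exchange factor for Rab3, had -0.28 over all libraries (SE 0.22, adjusted p = 0.403) and -0.58 with the set term (SE 0.16, adjusted p = 0.195). For vesicle retrieval, Dnm1, the neuronal dynamin, averaged 10554 ± 2820 in aged and 5953 ± 3768 in young libraries (0.998, SE 0.33, adjusted p = 0.182), and its difference with the set term was 0.49 (SE 0.21, adjusted p = 0.341). Ston1 averaged 209 ± 271 in aged and 570 ± 308 in young libraries (-2.05, SE 0.67, adjusted p = 0.182), and with the set term it had -1.06 (SE 0.46, adjusted p = 0.351). None of these differences passed.

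**Figure D5:**
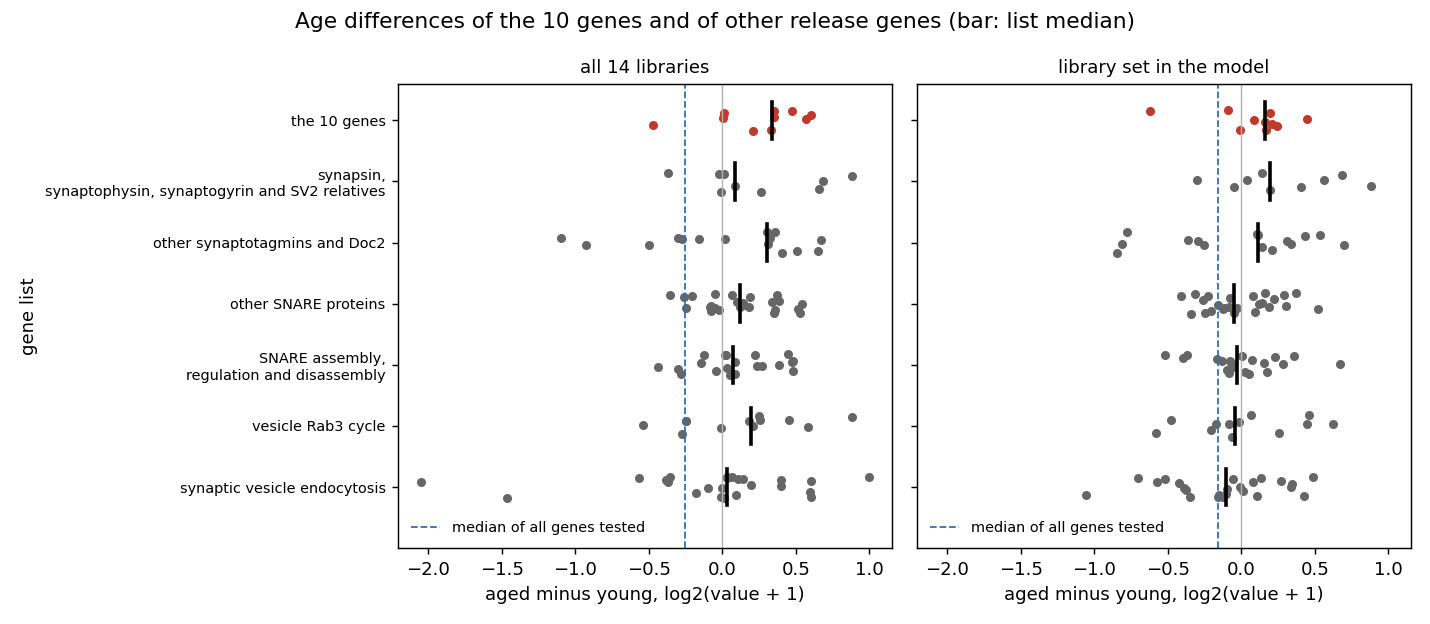
Log2 differences, aged minus young in log2(value + 1) units, of the 10 genes (red) and of the genes of 6 other lists (grey points, 1 per gene; bar, list median; dashed line, median of all genes tested), over all libraries (left) and with the library-set term (right). Medians of the 10 genes are 0.34 and 0.16, those of all genes -0.25 and -0.16.

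Genes of these lists did pass between the library sets. With age in the model, 24 of 105 genes were higher and 4 lower in Xist-positive libraries by limma, against 15.5% and 36.5% of all genes. With equal totals 10 were higher and 15 lower (7.68% and 43.2% of all genes), and with upper-quartile scaling 17 and 4 (11% and 39%). The genes named here passed with the same sign under both scalings. Of the other SNAREs, 9 of 25 were higher, among them Vamp3 (1.19, SE 0.23, adjusted p = 0.000385), a synaptobrevin relative found in most cells, and Stx16 (0.77, SE 0.15, adjusted p = 0.00050). Of the endocytosis genes, 8 of 24 were higher, with Dnm2 at 0.84 (SE 0.12), Pacsin1 at 1.38 (SE 0.21) and Dnm1 at 1.19 (SE 0.21). Ston1 and Ston2 were lower, at -2.31 (SE 0.46) and -2.43 (SE 0.56). Complexin 2 (Cplx2), a clamp and activator of the SNARE complex, was higher by 1.35 (SE 0.23) and Syt7 by 1.84 (SE 0.19). Syn3, a further synapsin, was lower, at -1.002 (SE 0.29, adjusted p = 0.0078), the opposite sign to Syn2. Labels give neither sex nor batch, which cannot be told apart here.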

How the data were processed

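Neuronal nuclei of 7 aged and 7 young mouse samples were profiled with SmartSeq libraries after TriZol extraction, per the labels' protocols. The submitters' processing notes list STAR, kallisto, DESeq2 and the build mm10, with neither roles nor version numbers. The authors deposited normalized signal per gene in 14 library columns. Low values lay within 0.05 of whole steps in only 21.7 to 31.6% of cases, so reads could not be recovered, depth and its precision are unknown, and limma took the place of the count test. The authors' deposited log2 fold changes with their standard errors, test scores and p-values, adjusted ones included, were used only where named. A row with no name (0.0431 to 0.221% of a library's total) was left out, and 0 value columns were left unmapped.

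Values were log2(value + 1) transformed and fitted with limma 3.58.1 (R 4.3.3, eBayes with a mean-variance trend), with Benjamini-Hochberg adjustment over 24554 genes and a threshold of 0.05. Libraries with Xist above 1000.0 formed the Xist-positive set. Models had age alone, age and set, or their product. Ratios and the parvalbumin relations used two-sided exact permutation tests (Python 3.11.15, numpy 2.4.6, pandas 2.3.3, scipy 1.17.1). The limma model with age and set was run on simulated data with independent normal noise, which held no outlying library. The other models were not simulated. Coordinates and exon lengths come from GENCODE M21 on mm10 and promoters from RefSeq (GRCm38.p6). Alternatives covered model terms, pseudocount, filter, scaling, array weights and leaving out each library.

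The members, gene lists, tests and alternatives were chosen with earlier results of these data known. The text names all 10 members and the genes most like them. For the lists the rule was the genes past the threshold (up to 4 per list by smallest p) or else the 2 with the smallest p. It was kept in the age test over all libraries. With the set term and between the sets, only some of the genes it picks are named. Overlapping genes, Ston1 and Ston2 between the sets, and library 3 of the aged group were named after their values were seen.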

Additional observations from a re-analysis of the deposited data

Results flagged for a closer look

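In 3 of the 20 gene and age group combinations of the members, 1 library lay far from the other 6 by Dixon's test, in which the gap to the nearest library is divided by the whole range (limit 0.568 for 7 libraries). That is 15% of them, against 15.2% of the 49108 gene and group combinations of all genes tested, so the members' share lies near the background. In normal data chance flags about 1 in 20 groups. Aged library 3 lay far above the other aged libraries for Syt2, at 9259 (gap 0.873 of the range), and for Vamp1, at 5288 (gap 0.846). Aged library 12 lay far below the other aged libraries for Snap25, at 14154 (gap 0.670). Of all genes tested, 4.03% had aged library 3 far above the other aged libraries and 0.151% far below them. Aged library 12 lay far above them for 8.34%, the highest share of the 14 libraries, and far below them for 0.24%. Aged library 3 had 21773 genes above 0, within the 21152 to 22812 of its set, and aged library 12 had 25507, within the 25263 to 25615 of its set.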

How the results depend on the processing

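No paired analysis was run, because the labels give no pairing of aged with young libraries. With array weights, 4 members passed the age test over all libraries (Snap25 0.61, Syn2 1.32, Syp 0.67 and Sv2a 0.63), as did 30 other release genes and 53.1% of all genes. That fit gave weights of 0.275 to 0.416 to the 2 Xist-negative aged and 2 Xist-positive young libraries. Leaving out each library gave 0 to 1 members and 0 to 7 other release genes called by age. The highest counts came without aged library 12, where 9.7% of all genes were called. Between the sets, leaving out each library gave 1 to 3 members called, where 52% of all genes were called with all 14 libraries kept. The share of all genes called between the sets in each omission is not given here. With upper-quartile scaling 1 member passed between the sets, as did 50% of all genes.

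Signs changed as follows. The age difference over all libraries was -0.012 for Syt1 and -0.089 for Syn2 with the set term, -0.15 for Syn2 in Xist-positive libraries, and -0.060 for Snap25, -0.091 for Syt1, -0.23 for Syn1 and -0.029 for Syn2 in Xist-negative libraries. It was -0.00051 for Syn1 with equal totals, -0.042 for Syt1 and -0.047 for Syn1 with upper-quartile scaling, and -0.16 for Syn1 with array weights. With the set term, Syt1 gave 0.12 and Syn2 0.044 with equal totals, Syt1 0.0029 with upper-quartile scaling, and Syt1 0.039, Syt2 -0.010 and Syn2 0.017 with array weights. The set difference was -0.28 for Vamp2, -0.27 for Syt1 and -0.027 for Syp with equal totals, and -0.11 for Vamp2 and -0.10 for Syt1 with upper-quartile scaling. Within the sets Vamp1 over Vamp2 gave -0.027 and Syn2 over Syn1 -0.25.

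Leaving out each library gave age differences over all libraries of -0.11 to 0.10 for Syn1, -0.058 to 0.087 for Syt1 and -0.24 to 0.69 for Syt2. With the set term they were -0.17 to 0.42 for Snap25, -0.0024 to 0.41 for Syn1, -0.22 to 0.040 for Syn2, -0.076 to 0.094 for Syt1 and -0.21 to 0.47 for Syt2. Set differences were -0.058 to 0.11 for Syt1, -0.10 to 0.57 for Syt2 and -0.16 to 0.20 for Vamp2. Age differences of the ratios were -0.33 to 0.70 for Syt2 over Syt1 and -0.087 to 0.27 for Vamp1 over Vamp2. No member passed the age by set interaction, or the age test with the set term, under any alternative run. The causes of these changes were not tested. Depth is unknown, so no counting error could be given for low values, and a p that misses the threshold does not show that the groups did not differ.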
